A study of Mus musculus with 10 samples.

Results

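The 10 genes described here belong to the opioid and cannabinoid systems. They are the 4 opioid receptors Oprm1, Oprd1, Oprk1 and Oprl1, the peptide precursors Penk and Pdyn, the cannabinoid receptors Cnr1 and Cnr2, and the endocannabinoid hydrolases Faah and Mgll. They were taken from the deposited table by gene name, and each matched 1 Ensembl gene ID, so that 10 of the 40481 distinct IDs in the table are described. The tissue was the dorsal root ganglion (DRG) of C57BL/6 mice, which holds the cell bodies of the sensory neurons that supply the body wall and limbs. Libraries came from 5 samples of mice given 10 mg/kg oxaliplatin, a platinum chemotherapy drug known for causing painful neuropathy, and from 5 samples of mice given vehicle. The design text gives a treatment of 8 weeks and an RNA integrity threshold of 8, and both groups share the strain and the tissue. The labels do not give the age or sex of the animals or the dosing schedule, nor whether every library is a separate animal, so the p-values cover only the spread among these libraries, which may in part be technical.

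Opioid receptors are receptors for endogenous peptides and for morphine-like drugs. They couple to inhibitory G proteins, which lower cyclic AMP, restrain voltage-gated calcium channels and open inwardly rectifying potassium channels, and in sensory neurons this reduces transmitter release and pain signalling. The CB1 receptor acts through the same class of G proteins on the terminals of neurons, while the CB2 receptor is best known from immune cells. The endocannabinoids are made from membrane lipids on demand and are removed by hydrolysis, anandamide mainly by the product of Faah and 2-arachidonoylglycerol mainly by the product of Mgll.

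The opioid peptides are cut out of larger precursors, and the coding sequences below are shown because they tell apart what the Penk and Pdyn transcripts counted here encode. In the longest open reading frame of each gene in the GENCODE M21 transcripts, a search was made for codons for tyrosine, glycine, glycine and phenylalanine followed by a codon for methionine or leucine. The Penk frame of 268 codons held 7 such cores, 6 ending in methionine as in Met-enkephalin and 1 ending in leucine as in Leu-enkephalin. The Pdyn frame of 248 codons held 3, all ending in leucine, the shared start of the dynorphins and neoendorphins. Sequences are given on the transcript strand, 5′ to 3′, with the codon for the last residue in capitals.
Penk core 1: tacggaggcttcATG
Penk core 2: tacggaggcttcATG
Penk core 3: tatggcggcttcATG
Penk core 4: tatgggggcttcATG
Penk core 5: tacgggggcttcATG
Penk core 6: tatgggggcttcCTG
Penk core 7: tacgggggctttATG
Pdyn core 1: tatggcggctttTTG
Pdyn core 2: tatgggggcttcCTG
Pdyn core 3: tatggtggtttcCTG
Core 6 of Penk and core 2 of Pdyn are the same 15 bases, so these genes were told apart by the rest of their transcripts.

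Each library held 52963470 to 60984426 counted reads, and 18401 genes had enough counts to be tested. The markers of the labelled tissue were present, with summed levels of 10 neuron markers of 17510 to 18930 CPM (counts per 1e6 counts, on TMM-scaled library sizes) after oxaliplatin and 18710 to 21680 CPM after vehicle, and 0 of the 10 passed the test (3 had an unadjusted p below 0.05). Among markers of other cells, 2 of 4 endothelial and 2 of 4 pericyte genes and 1 of 8 fibroblast genes were higher after oxaliplatin. Of 9 macrophage genes 1 was lower. Over all tested genes, 1.27% were higher and 0.772% lower. Satellite glia had 1 of 6 higher and 1 lower, and Schwann cells 0 of 7 (3 had an unadjusted p below 0.05). Summed adipocyte markers stood at 714 CPM in oxaliplatin replicate 1, against 24.6 to 58.4 CPM in the other oxaliplatin libraries and 16.6 to 45.1 CPM after vehicle. Summed skeletal muscle markers were at 722 CPM in the same library and 9.60 to 24.1 CPM in the other 4 oxaliplatin libraries, all below the 96.8 to 478 CPM after vehicle. Of the 6 muscle genes 0 passed the test (edgeR, 0 with an unadjusted p below 0.05), and of the 6 tested adipocyte genes 0 did (2 with an unadjusted p below 0.05). The part of these markers in the values below was not tested. In whole ganglia, fewer cells of a type and less RNA per cell cannot be told apart.

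No member passed the test between the groups. With the quasi-likelihood test of edgeR at an adjusted p threshold of 0.05 (Benjamini-Hochberg, over all tested genes), 0 of the 9 members with enough counts were higher and 0 were lower after oxaliplatin, where 1.27% of all tested genes were higher and 0.772% lower. No member reached an unadjusted p below 0.05, which 16.3% of tested genes did, and the counts were also 0 and 0 in DESeq2 and in limma voom. In every member the libraries of the groups overlapped, while 4.02% of tested genes had groups without overlap. The smallest adjusted p of a member was 0.547, for Faah. The median log2 fold change of the 9 was -0.02, against 0.01 for all tested genes, and their median absolute log2 fold change was 0.12, against 0.14. With 9 genes and 2.04% of tested genes called, a count of 0 is near the background. Each gene's 95% interval, given below, states the size of change that these libraries still allow.

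**Figure D1:**
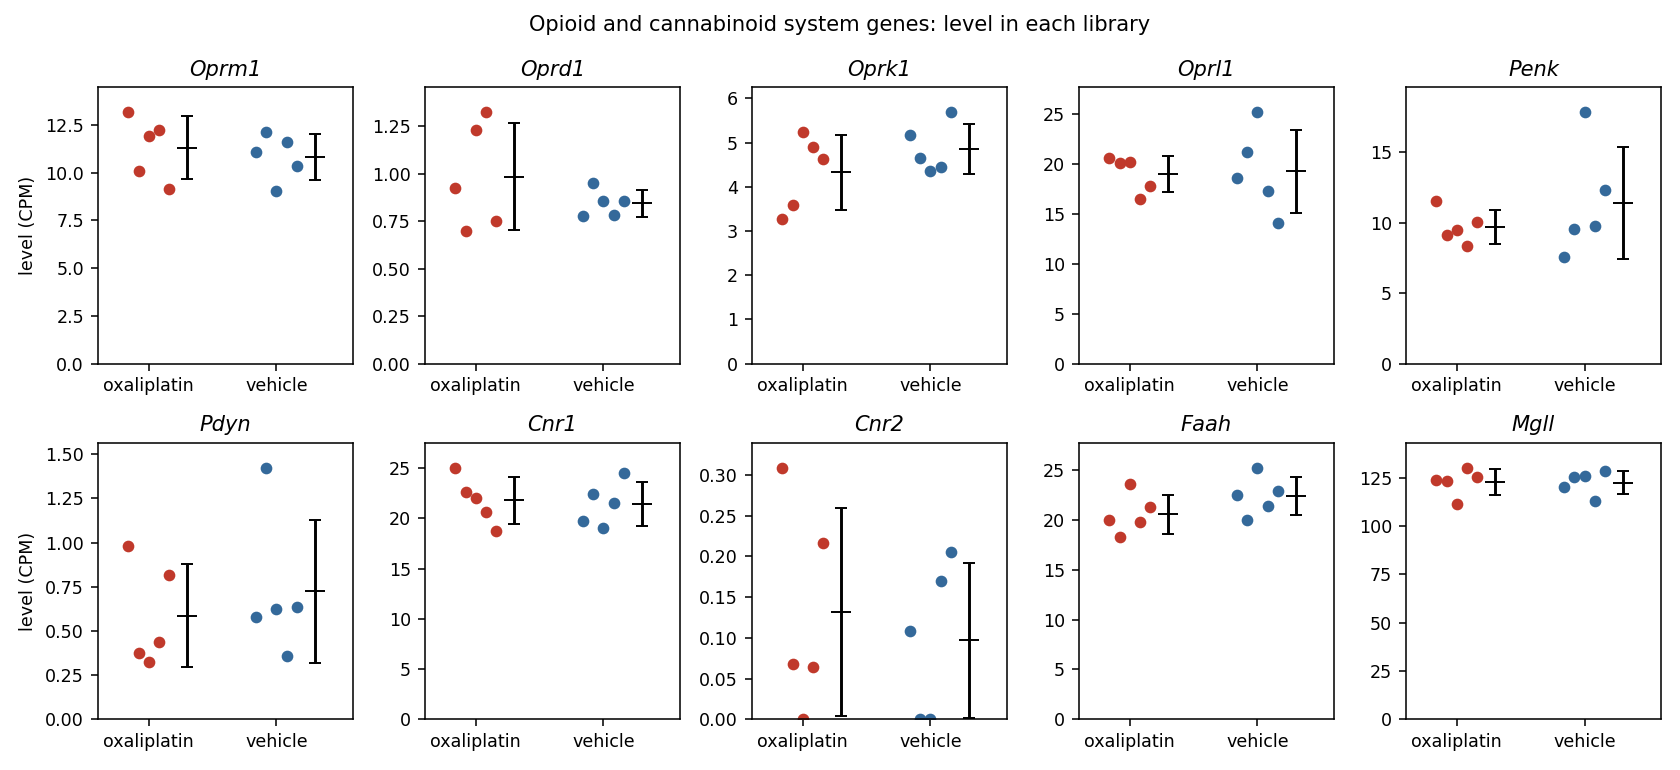
Level of each of the 10 members in CPM (y axis, from 0) in the 5 oxaliplatin libraries (red, left) and the 5 vehicle libraries (blue, right). Points are libraries and black marks are the mean ± SD. The groups overlap in all 10 panels, and the high vehicle points of Penk (17.8 CPM) and Pdyn (1.42 CPM) are vehicle replicates 3 and 2.

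Oprm1 (ENSMUSG00000000766) codes for the mu receptor, the main target of morphine. It had 13.1, 10.1, 11.9, 12.2 and 9.14 CPM in oxaliplatin replicates 1 to 5, against 11.1, 12.1, 9.04, 11.6 and 10.3 CPM in vehicle replicates 1 to 5. The 2 highest libraries and the second lowest were from the oxaliplatin group, and the lowest was a vehicle library. The mean was 11.3 ± 1.65 CPM after oxaliplatin and 10.8 ± 1.20 CPM after vehicle (SD, n = 5 each). The log2 fold change was 0.06 ± 0.12 (SE, edgeR adjusted p = 0.860), and the 95% interval ran from 0.878-fold to 1.24-fold. On the opposite strand, Ipcef1 overlaps 1.19% of the exon bases of Oprm1, and it stood at 0.591 ± 0.215 CPM after oxaliplatin and 0.706 ± 0.216 CPM after vehicle (SD, n = 5 each).

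Oprd1 (ENSMUSG00000050511), the delta receptor, had few reads, with 41 to 82 per oxaliplatin library and 43 to 51 per vehicle library. By mean CPM, 19.4% of tested genes were at or below it. Its level was 0.925, 0.701, 1.23, 1.32 and 0.751 CPM in oxaliplatin replicates 1 to 5, against 0.778, 0.954, 0.858, 0.782 and 0.857 CPM in vehicle replicates 1 to 5. The oxaliplatin libraries lay on both sides of the vehicle range, 2 above it and 2 below. The SD was 0.280 CPM after oxaliplatin and 0.0720 CPM after vehicle. At 52.5 reads on average, counting alone gives a coefficient of variation (CV) of 13.8%, against a measured CV of 28.4% after oxaliplatin and 8.52% after vehicle. Its log2 fold change was 0.22 ± 0.25 (SE, edgeR adjusted p = 0.727), with an interval from 0.806-fold to 1.69-fold.

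The kappa receptor, Oprk1 (ENSMUSG00000025905), which the dynorphins activate, had 3.28, 3.59, 5.23, 4.91 and 4.62 CPM in oxaliplatin replicates 1 to 5. In vehicle replicates 1 to 5 it had 5.17, 4.64, 4.36, 4.44 and 5.68 CPM. Replicates 1 and 2 of the oxaliplatin group were lower than every vehicle library, and the other 3 lay within the vehicle range. Its log2 fold change was -0.17 ± 0.15 (SE, edgeR adjusted p = 0.650), with an interval from 0.71-fold to 1.12-fold.

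Oprl1 (ENSMUSG00000027584) codes for the nociceptin receptor, which is related to the opioid receptors by sequence but binds morphine-like drugs poorly. Its levels were 20.6, 20.1, 20.2, 16.5 and 17.9 CPM in oxaliplatin replicates 1 to 5, against 18.6, 21.2, 25.2, 17.3 and 14.1 CPM in vehicle replicates 1 to 5. All 5 oxaliplatin libraries lay inside the vehicle range. The means were 19.0 ± 1.80 CPM after oxaliplatin and 19.3 ± 4.19 CPM after vehicle (SD, n = 5 each). This gave a log2 fold change of -0.02 ± 0.13 (SE, edgeR adjusted p = 0.969), with an interval from 0.818-fold to 1.19-fold.

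Per kilobase of exon, Oprl1 made up most of the opioid receptor level in both groups. Dividing each library's CPM by the gene's union exon length in GENCODE M21, the 4 receptors summed to 7.20 ± 0.526 CPM per kb after oxaliplatin and 7.22 ± 1.03 after vehicle (SD, n = 5 each). The share of Oprl1 was 70.5 ± 3.70% after oxaliplatin and 70.5 ± 5.4% after vehicle, and that of Oprm1 19.5 ± 2.29% and 19.0 ± 3.47%. Oprk1 held 6.62 ± 1.47% after oxaliplatin and 7.55 ± 1.91% after vehicle, and Oprd1 3.41 ± 0.986% and 2.95 ± 0.425%. These shares were not tested. They treat every annotated exon as used, so a receptor whose DRG transcripts are shorter than its annotation is understated.

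Penk (ENSMUSG00000045573), the enkephalin precursor whose cores are printed above, had 11.6, 9.14, 9.49, 8.32 and 10.0 CPM in oxaliplatin replicates 1 to 5. In vehicle replicates 1 to 5 it had 7.54, 9.52, 17.8, 9.79 and 12.3 CPM. The oxaliplatin values lay inside the wider vehicle range, whose highest and lowest values were both beyond them. The mean was 9.71 ± 1.21 CPM after oxaliplatin and 11.4 ± 3.97 CPM after vehicle (SD, n = 5 each). The log2 fold change was -0.23 ± 0.19 (SE, edgeR adjusted p = 0.606), with an interval from 0.640-fold to 1.13-fold. Without vehicle replicate 3, which held 997 Penk reads against 417 to 662 in the other vehicle libraries, it was -0.01 (adjusted p = 0.990). The annotated gene A830012C17Rik lies on the opposite strand and shares 14.3% of the exon bases of Penk. It was given 0 to 6 reads per library, which shows only where the authors' counting put reads, since strand is not stated.

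Pdyn (ENSMUSG00000027400), the dynorphin precursor, had 19 to 54 reads per oxaliplatin library and 21 to 76 per vehicle library. Its levels were 0.979, 0.376, 0.325, 0.436 and 0.817 CPM in oxaliplatin replicates 1 to 5, against 0.579, 1.42, 0.626, 0.357 and 0.633 CPM in vehicle replicates 1 to 5. Vehicle replicate 2 was the highest library and oxaliplatin replicate 1 the next. For Pdyn the log2 fold change was -0.30 ± 0.41 (SE, edgeR adjusted p = 0.785). The interval, from 0.447-fold to 1.48-fold, was the widest of the tested members. The CV between libraries was 49.9% after oxaliplatin and 56.2% after vehicle, where counting alone gives 16.5%. Without vehicle replicate 2 the log2 fold change was 0.10 (adjusted p = 0.935). Per kilobase, the Penk level was 34.2 ± 13.4 times that of Pdyn after oxaliplatin and 33.6 ± 16.5 times after vehicle (mean of the library ratios ± SD, n = 5 each).

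The CB1 receptor gene Cnr1 (ENSMUSG00000044288) had 25.0, 22.6, 22.0, 20.7 and 18.8 CPM in oxaliplatin replicates 1 to 5, and 19.7, 22.4, 19.1, 21.5 and 24.5 CPM in vehicle replicates 1 to 5. Both the highest and the lowest library were from the oxaliplatin group. The means were 21.8 ± 2.33 CPM after oxaliplatin and 21.4 ± 2.18 CPM after vehicle (SD, n = 5 each), a log2 fold change of 0.03 ± 0.10 (SE, edgeR adjusted p = 0.935). The interval ran from 0.884-fold to 1.17-fold.

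Cnr2 (ENSMUSG00000062585), the CB2 receptor gene, did not pass the filter on low counts and is given by its reads. It had 17, 4, 0, 4 and 13 reads in oxaliplatin replicates 1 to 5, against 6, 0, 0, 10 and 11 reads in vehicle replicates 1 to 5. The sums were 38 reads over the oxaliplatin libraries and 27 over the vehicle libraries. In the 3 libraries without a read, a count of 0 allows a level of up to 0.0513 CPM (oxaliplatin replicate 3), 0.0561 CPM (vehicle replicate 2) and 0.0536 CPM (vehicle replicate 3), taking 3 reads as the limit, which covers counting error only. Without the filter the log2 fold change was 0.44 ± 0.96 (SE, edgeR adjusted p = 0.888), so no difference was detectable in these libraries. Summed markers of macrophages were 51.7 to 73.4 CPM after oxaliplatin and 47.9 to 89.3 CPM after vehicle. These sums hide differences between the 9 genes. Cx3cr1 was lower (log2 fold change -1.73 ± 0.32, edgeR adjusted p = 0.0145), while 3 of the 9 had a log2 fold change above 0 and 0 passed as higher. Summed lymphocyte markers were 3.16 to 4.63 CPM after oxaliplatin and 4.76 to 7.03 CPM after vehicle. These lymphocyte sums did not overlap, but 0 of the 4 lymphocyte genes with enough counts passed the test (edgeR, 2 with an unadjusted p below 0.05). Most of the sum was Cd79a, at 3.17 CPM after oxaliplatin and 4.29 CPM after vehicle, while Nkg7 was at 0.282 CPM after oxaliplatin and 0.195 CPM after vehicle. None of these 9 macrophage and 9 lymphocyte markers was at 0 in all libraries, and their part in the Cnr2 reads was not tested.

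Faah (ENSMUSG00000034171), the hydrolase of anandamide, had 19.9, 18.3, 23.6, 19.8 and 21.3 CPM in oxaliplatin replicates 1 to 5, against 22.5, 20.0, 25.2, 21.4 and 22.9 CPM in vehicle replicates 1 to 5. Of the oxaliplatin libraries, 1 lay above the vehicle median and the other 4 below it. The means were 20.6 ± 1.98 CPM after oxaliplatin and 22.4 ± 1.91 CPM after vehicle (SD, n = 5 each). This gave a log2 fold change of -0.12 ± 0.09 (SE, edgeR adjusted p = 0.547), and the interval from 0.804-fold to 1.05-fold included no change.

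Mgll (ENSMUSG00000033174), which codes for monoacylglycerol lipase, was the most abundant member and the most even. It had 124, 123, 111, 130.0 and 125 CPM in oxaliplatin replicates 1 to 5, against 120.1, 125, 126, 113 and 128 CPM in vehicle replicates 1 to 5. The CV between libraries was 5.62% after oxaliplatin and 5.02% after vehicle, where counting alone gives 1.19%. For Mgll the log2 fold change was 0.00 ± 0.06 (SE, edgeR adjusted p = 0.989), with an interval from 0.918-fold to 1.09-fold. Adipocytes use the same enzyme to release fatty acids from stored fat. In oxaliplatin replicate 1, where the adipocyte markers were highest, Mgll stood at 124 CPM, the middle value of its group. The part of adipocytes in the Mgll level was not tested. Per kilobase, Mgll was 9.31 ± 1.24 times as abundant as Faah after oxaliplatin and 8.48 ± 0.733 times after vehicle (SD, n = 5 each), a ratio that was not tested.

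**Figure D2:**
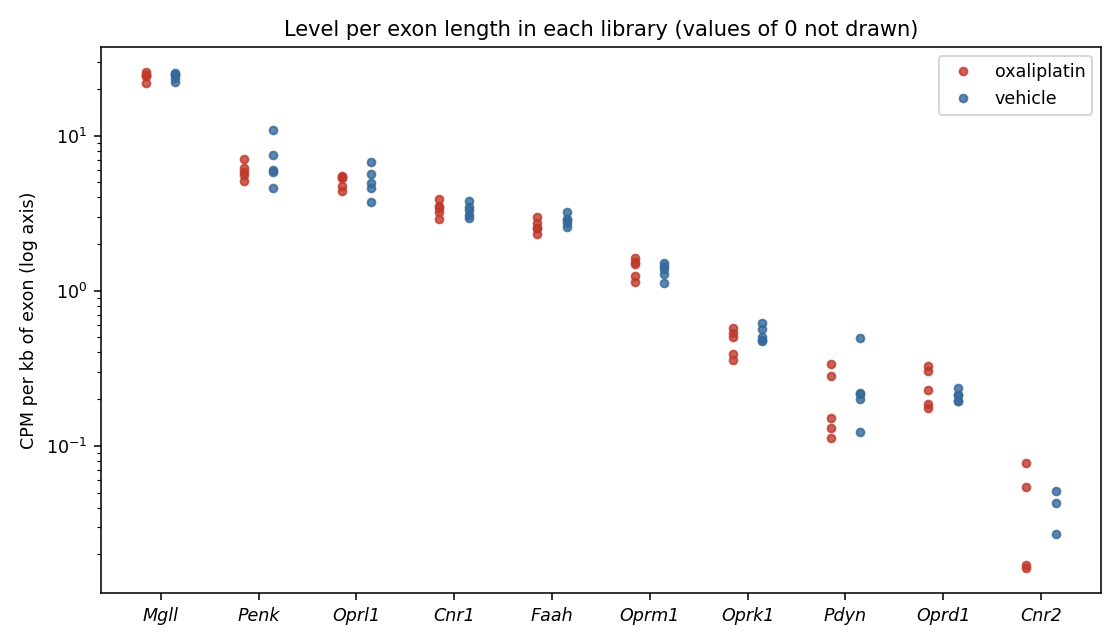
Level per kilobase of exon (y axis, log scale) of the 10 members in each oxaliplatin library (red) and each vehicle library (blue), in the order of their vehicle means. Mgll lies at 21.9 to 25.6 CPM per kb in all 10 libraries, and the libraries where Cnr2 had 0 reads are not drawn.

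Ordered by vehicle mean level per kilobase, the members ran from Mgll (24.2 ± 1.36 CPM per kb after oxaliplatin and 24.1 ± 1.21 after vehicle) to Penk (5.94 ± 0.742 and 6.98 ± 2.43), Oprl1 (5.07 ± 0.479 and 5.13 ± 1.12) and Cnr1 (3.39 ± 0.361 and 3.33 ± 0.338). After these came Faah (2.62 ± 0.253 after oxaliplatin and 2.86 ± 0.244 after vehicle) and Oprm1 (1.41 ± 0.205 and 1.35 ± 0.149). Oprk1 was at 0.473 ± 0.0927 CPM per kb after oxaliplatin and 0.531 ± 0.0611 after vehicle, followed by Pdyn (0.203 ± 0.101 and 0.251 ± 0.141), Oprd1 (0.245 ± 0.0697 and 0.210 ± 0.0179) and Cnr2 (0.0331 ± 0.0318 and 0.0243 ± 0.0238). The ranges over all 10 libraries did not overlap between Mgll and Penk, Faah and Oprm1, Oprm1 and Oprk1, or Oprd1 and Cnr2. Those of Penk and Oprl1, of Oprl1 and Cnr1, and of Cnr1 and Faah overlapped, with the order kept in 9 of 10 libraries each. The ranges of Oprk1 and Pdyn overlapped too, though Oprk1 was higher in each of the 10 libraries. Pdyn exceeded Oprd1 in 6 of 10 libraries, so these neighbours cannot be ranked, and their order by oxaliplatin means was the opposite.

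Vehicle replicate 3 was at an extreme for several members. It was the highest library for Penk, Oprl1 and Faah and the lowest for Oprm1. The summed neuron markers were also highest there, at 21680 CPM, but the single markers differed. Snap25 (3100 CPM) and Stmn2 (3229 CPM) were highest in this library, while Rbfox3 (133 CPM) was lowest. The part of the neuron markers in the values of the members was not tested. Oxaliplatin replicate 1 was the highest for Oprm1, Cnr1 and Cnr2 and the lowest for Oprk1.

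**Figure D3:**
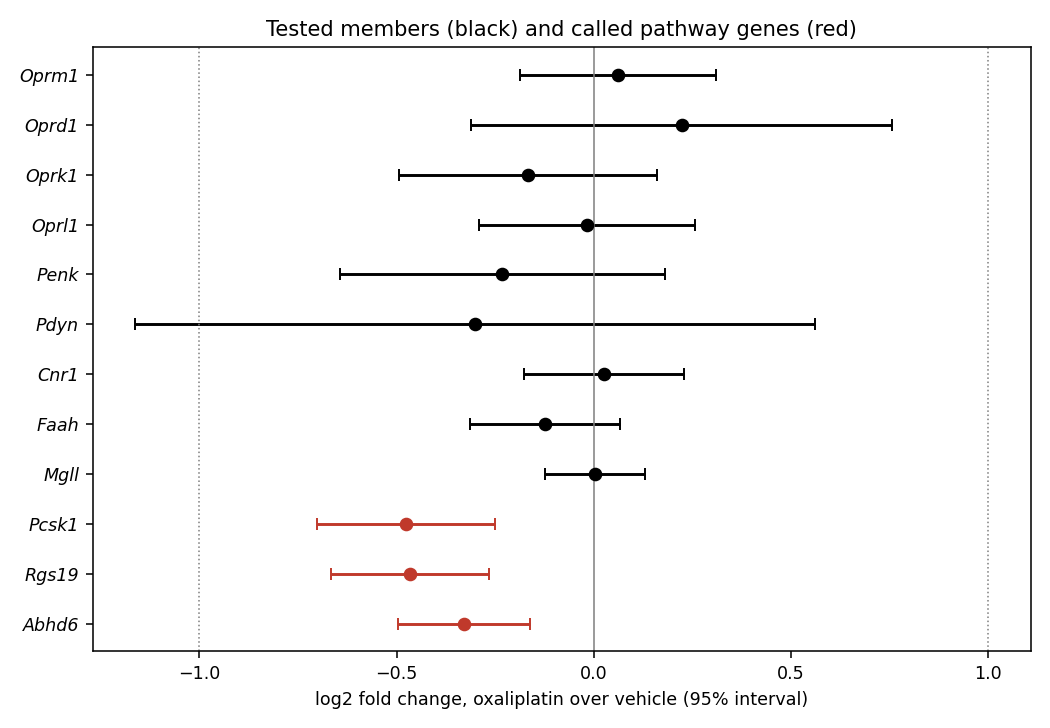
Log2 fold change of oxaliplatin over vehicle (x axis) with its 95% interval for the 9 tested members (black) and the 3 other pathway genes past the threshold (red). Dotted lines mark a change of 2-fold in each direction. Every black interval crosses 0, and only that of Pdyn passes a dotted line.

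The intervals of 8 of the 9 tested members lay within 2-fold in both directions, the exception being Pdyn, and this held for 80.3% of all tested genes. Those of 6 members lay within 1.5-fold (61.6% of all tested genes). The 3 that did not were Pdyn, Oprd1 and Penk, of which Pdyn and Oprd1 had the fewest reads and Penk a CV of 34.8% between vehicle libraries.

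For each member with a mean of at least 2 CPM, the genes with the most similar profile over the 10 libraries were found as those with the smallest root mean square (RMS) difference in log2 CPM, each gene centred on its own mean. For Oprm1 they were Map2 (RMS 0.074) and Ipmk (0.082), against a median of 0.237 over 12258 candidate genes. For Penk they were Mro (0.155) and Bbs12 (0.177), against a median of 0.378, and for Oprl1 Rab11fip2 (0.115) and Taf1a (0.124), against 0.270. Oprk1 was nearest to Tmem160 (0.127) and Psmc3ip (0.129), against 0.282. Cnr1 was nearest to Mthfd1l (0.081) and Brd7 (0.082), against 0.212, Faah to Mrpl58 (0.056) and Isca2 (0.058), against 0.213, and Mgll to Pmm2 (0.042) and Rps6kb2 (0.044), against 0.179. An even gene such as Mgll is close to every other even gene by this measure. The nearest genes lie below the median by how they were picked, and whether they are nearer than by chance was not tested.

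Around the receptors and ligands, 3 genes of the same pathways were lower after oxaliplatin and none was higher. The lists held 56 further genes, of which 54 were tested and 3 (5.56%) passed on the lower side, where 0.772% of all tested genes did. These lists were chosen with earlier results of these data known, so this contrast is no test of the pathways. The 3 genes were Pcsk1 among 12 genes for opioid peptides, their processing and breakdown, Rgs19 among 26 genes of receptor signalling and transport, and Abhd6 among 16 genes of the endocannabinoid system. The median log2 fold changes of the 3 lists were 0.05, 0.01 and -0.10, against 0.01 for all tested genes. Values above 0 were found for 7 of 12, 14 of 26 and 3 of 16 genes, against 9391 of all 18401 tested genes. Unadjusted p-values below 0.05 were found for 2 of 12, 6 of 26 and 3 of 16 genes of the lists in either direction, against 16.3% of all tested genes. DESeq2 called 4 pathway genes and limma voom 5, and without oxaliplatin replicate 1, 4 or 5 edgeR called 0, against 3 with all libraries.

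**Figure D4:**
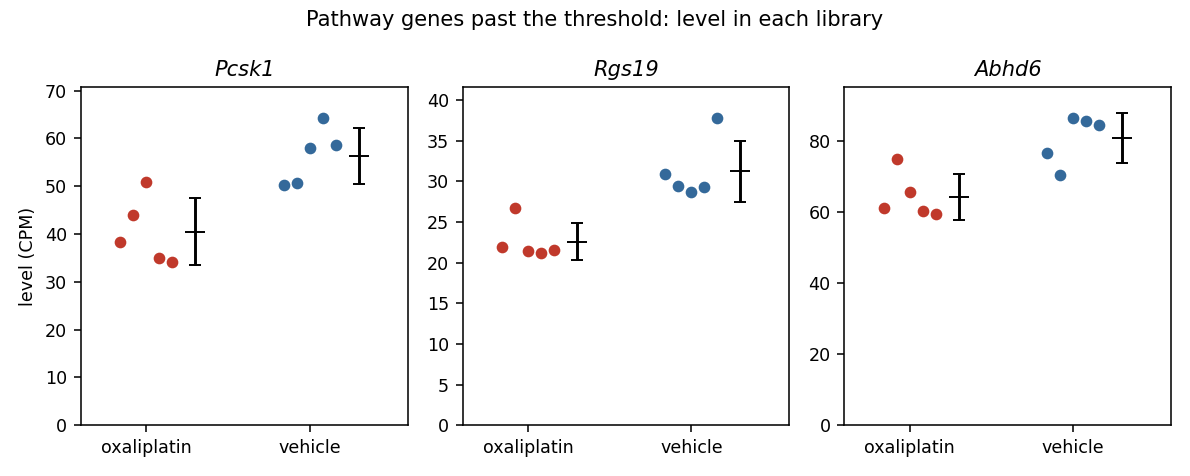
Level of Pcsk1, Rgs19 and Abhd6 in CPM (y axis, from 0) in the 5 oxaliplatin libraries (red, left) and the 5 vehicle libraries (blue, right), with black marks for the mean ± SD. Rgs19 is the only gene of the 3 whose groups do not overlap.

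Pcsk1, a prohormone convertase that cuts peptide precursors including that of the enkephalins, had 38.4, 44.0, 50.9, 35.0 and 34.3 CPM in oxaliplatin replicates 1 to 5. In vehicle replicates 1 to 5 it had 50.3, 50.8, 57.9, 64.3 and 58.6 CPM. Only oxaliplatin replicate 3 reached the vehicle range. Pcsk1 fell, with a log2 fold change of -0.48 ± 0.11 (SE, edgeR adjusted p = 0.0298). The call was lost without oxaliplatin replicate 1 (adjusted p = 0.0769), 4 (0.0880) or 5 (0.0922) and without vehicle replicate 3 (0.0597), 4 (0.0928) or 5 (0.0620). The related convertase Pcsk2 was at -0.11 ± 0.06 (adjusted p = 0.419), and Cpe, the carboxypeptidase that trims the cut peptides, at 0.07 ± 0.05 (adjusted p = 0.607). The peptide precursors Pomc and Pnoc (for beta-endorphin and for nociceptin) were at -0.10 ± 0.21 and 0.13 ± 0.27 (edgeR adjusted p = 0.871 and 0.875). Anpep, an aminopeptidase that degrades enkephalins, had the next smallest p of its list, at 0.62 ± 0.22 (edgeR adjusted p = 0.160). Its adjusted p was 0.0490 in limma voom and 0.0484 without vehicle replicate 2, and over all alternatives it ran from 0.0484 to 0.341.

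Rgs19 speeds the return of inhibitory G proteins to the resting state. It had 22.0, 26.7, 21.5, 21.2 and 21.6 CPM in oxaliplatin replicates 1 to 5, against 30.9, 29.4, 28.7, 29.3 and 37.8 CPM in vehicle replicates 1 to 5. Every oxaliplatin library was below every vehicle library. Rgs19 fell, with a log2 fold change of -0.47 ± 0.09 (SE, edgeR adjusted p = 0.0193), but the adjusted p was above 0.05 without oxaliplatin replicate 1 (0.0523), 4 (0.0704) or 5 (0.0727). In GENCODE M21 the gene is separated from Oprl1 by a single protein-coding gene, Lkaaear1. Oprl1 itself was at -0.02, as given above. Arrb1, a beta-arrestin that uncouples receptors from G proteins, had the next smallest p of the list, at -0.27 ± 0.08 (edgeR adjusted p = 0.0769). Its adjusted p was 0.0302 in DESeq2, 0.0266 in limma voom, 0.0481 in edgeR with the replicate block and 0.0205 without vehicle replicate 3, and over all alternatives it ran from 0.0205 to 0.213.

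Abhd6, a lipase that hydrolyses a smaller part of 2-arachidonoylglycerol than the product of Mgll does, had 61.2, 75.0, 65.8, 60.4 and 59.6 CPM in oxaliplatin replicates 1 to 5. In vehicle replicates 1 to 5 it had 76.6, 70.5, 86.6, 85.9 and 84.7 CPM. Oxaliplatin replicate 2 lay above vehicle replicate 2, and all other oxaliplatin libraries were below the vehicle range. Abhd6 fell, with a log2 fold change of -0.33 ± 0.08 (SE, edgeR adjusted p = 0.0402). That call was lost without oxaliplatin replicate 1 (adjusted p = 0.112), 3 (0.0609), 4 (0.124) or 5 (0.132), without vehicle replicate 1 (0.0617), 3 (0.0817), 4 (0.129) or 5 (0.0712), and without a composition factor (0.0532). The genes that make 2-arachidonoylglycerol, Dagla and Daglb, were at -0.19 ± 0.17 and -0.04 ± 0.08 (edgeR adjusted p = 0.630 and 0.841). Napepld, which releases anandamide from its membrane precursor, was at -0.05 ± 0.11 (edgeR adjusted p = 0.885), and Fabp5, a carrier of endocannabinoids inside cells, at -0.16 ± 0.07 (edgeR adjusted p = 0.235). Trpv1, the heat-gated channel that anandamide also opens, was at 0.13 ± 0.08 (edgeR adjusted p = 0.443).

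In the lists of neuron class markers 0 genes passed as higher, and those that passed were lower. Over all tested genes, 1.27% were higher and 0.772% lower. Among 5 peptidergic nociceptor markers 1, Calcb, was lower (log2 fold change -0.49 ± 0.08, edgeR adjusted p = 0.00596), and the summed level was 4611 to 6487 CPM after oxaliplatin and 5773 to 7473 CPM after vehicle. For nonpeptidergic nociceptors 1 of 6, P2rx3, was lower (log2 fold change -0.31 ± 0.07, edgeR adjusted p = 0.0314). Their sums were 659 to 747 CPM after oxaliplatin and 604 to 881 CPM after vehicle. In that list Mrgprb4 went the other way without passing (log2 fold change 0.89 ± 0.28, edgeR adjusted p = 0.139). Its groups did not overlap, and neither did those of Calcb. Large-diameter neuron markers had 1 of 8 lower, Nefh (log2 fold change -0.63 ± 0.13, edgeR adjusted p = 0.04), whose groups did not overlap. The sums of this list were 796 to 1008 CPM after oxaliplatin and 912 to 1306 CPM after vehicle. Among these markers Necab2 went up without passing (log2 fold change 0.57 ± 0.15, edgeR adjusted p = 0.0566). Of 5 markers of low-threshold mechanoreceptors with C fibres 0 passed, and 4 had a log2 fold change above 0. Their sums were 316.4 to 588.5 CPM after oxaliplatin and 273.1 to 515.4 CPM after vehicle. In these lists the sums of the groups overlapped. Which cells made the transcripts of Pcsk1, Rgs19 and Abhd6 was not measured, and the part of these markers in their values was not tested.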

How the data were processed

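The authors deposited a table of raw counts, that is whole numbers of reads per Ensembl gene for each of the 10 libraries, with no normalization. Library preparation used a SMARTer kit on bead-extracted total RNA, per the labels' protocols. The submitters' processing notes name STAR 2.5.1a, Partek and DESeq2 without saying what each did, and the design text credits Partek with the authors' own differential expression calls, which were not used here. Build, annotation and counting step, strand included, were not given in the sources used here. No coordinates are therefore printed, and reads of overlapping or antisense genes cannot be told apart. Of 40757 rows, 276 repeats of an ID with identical counts were dropped. Libraries of a group all differed by more than sampling error, with chi-square over its degrees of freedom at 12.7 to 53.5 between pairs.

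Genes were tested with edgeR 4.0.16 (R 4.3.3): a robust quasi-likelihood fit on the 2 groups with TMM factors after filterByExpr, adjusted by Benjamini-Hochberg across the 18401 genes kept. SE is the log2 fold change over the root of F, and 95% intervals use the fit's degrees of freedom. The test was tested on simulated data. CPM were computed on TMM-scaled library sizes, and a prior count of 2 was used for log2 CPM. Exon lengths and transcripts came from GENCODE M21 by gene ID and name. Alternatives were RLE or no composition factor, no filter, a stricter filter (1 CPM in 5 libraries), DESeq2 1.42.0, limma 3.58.1 voom with quality weights, a replicate block, a threshold of 0.1, and leaving out libraries. Beyond the members, genes were named by rule: pathway genes past the threshold or of the 2 smallest p per list, and the 2 nearest profiles per member. Pcsk2, Cpe, Pomc, Pnoc, Dagla, Daglb, Napepld, Trpv1, Calcb, Cd79a, Nkg7, Cx3cr1, Mrgprb4, Necab2, P2rx3, Nefh, Snap25, Stmn2 and Rbfox3 were named after their values were seen. The members and lists were chosen with earlier results of these data known.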

Additional observations from a re-analysis of the deposited data

Results flagged for a closer look

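The Pdyn level in vehicle replicate 2, 1.42 CPM from 76 reads, stood apart from the other 4 vehicle libraries, whose highest value was 0.633 CPM. Its gap was 0.740 of the group's range, above the critical value of 0.71 for 5 samples. Of 20 such groups of members 1 was flagged, and chance flags about 1 in 20.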

How the results depend on the processing

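Under all 19 alternatives 0 members were called in either direction. The adjusted p of the members lay between 0.344 and 0.999, and 18 of the 169 log2 fold changes under the alternatives changed sign. Those at the threshold of 0.1 repeat the main fit and could not change. Oprl1 was at 0.0182 without a composition factor, 4e-04 in limma voom and 0.0038 with the replicate block, and Mgll at -0.0019 with RLE factors and in DESeq2. When libraries were left out singly, or oxaliplatin replicate 1 and vehicle replicate 5 together, log2 fold changes spanned -0.0161 to 0.1282 for Oprm1, -0.1411 to 0.1034 for Oprl1, -0.604 to 0.0986 for Pdyn, -0.0266 to 0.0787 for Cnr1 and -0.0251 to 0.0361 for Mgll. Oprd1 and Pdyn did not pass the stricter filter. Over all genes, 234 were higher and 142 lower, against 521 and 406 in DESeq2, 439 and 365 in limma voom, 424 and 304 at a threshold of 0.1, and 303 and 99 without a composition factor. Leaving out libraries gave 79 to 343 higher, 34 to 251 lower and 0 to 4 pathway genes, against 3. Same-numbered libraries were not treated as pairs, because the labels give them no shared source and their deviations correlated at -0.038 to 0.212, not all above 0.1. That 6 of 10 libraries correlated best with their own number is a hint from the data, not the design, that some numbers may mark a shared source. With the replicate block, 382 genes were higher and 278 lower, and 5 pathway genes were called, as in limma voom. The cause of these shifts was not tested. Cnr2, Pdyn and Oprd1 had the fewest reads of the members, but for each the spread between oxaliplatin libraries exceeded what counting alone gives. Between vehicle libraries this did not hold for Oprd1, with a CV of 8.52% against 13.8% from counting.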
